A study of Homo sapiens with 10 samples.

Results

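The T-cell receptor complex and the kinases that act next to it were followed through 9 genes in MOLT-4 cells, an established human line that grew from an acute leukaemia of the T lineage. The genes were taken by their symbols: the 4 signalling chains CD3D, CD3E, CD3G and CD247, the kinases LCK, FYN and ZAP70, the adaptor LAT and the phosphatase PTPRC. The Affymetrix array reads them with 15 probe sets, among 22215 probe sets that are not controls and 11963 genes that have a probe set of their own. Cells were given MABL, an antibody against CD47, for 0.5 h, 1 h, 3 h or 6 h, and cells of 0 h were the control, with 2 arrays per time and no genetic change named in the labels. The labels list 10 ug/mL MABL together with 50 ug/mL of an agent written GAM, without spelling it out, for all 10 arrays, those of 0 h included. No cells kept for the same time without antibody were analysed here, so antibody, GAM, time and handling cannot be told apart. Whether the 2 arrays of a time stand for separate cultures is not stated, and the p-values therefore reflect no more than the spread between these arrays, which may be technical.

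The antigen receptor of a T cell has no enzyme of its own. Its variable chains sit in the membrane with the CD3 chains and the zeta chain, CD247, whose tails carry tyrosines that LCK phosphorylates. ZAP70 binds the phosphorylated tails and in turn phosphorylates LAT, on which the enzymes of calcium and RAS signalling assemble. FYN is a SRC-family kinase close to LCK, and PTPRC, the surface phosphatase CD45, removes the inhibitory phosphate from both. The genes of the CD3 chains are switched on during thymic development and many T-cell leukaemias keep them.

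Levels are given as log2 expression, by reading the square root of the deposited score as log2. No source used here states the scale, and every size below depends on this reading. A probe set was tested when at least 2 of the 10 arrays stood at log2 5 or higher, which kept 4276 probe sets in all. Of the 15 member probe sets 11 passed, all of them on all 10 arrays, and they stood for 8 of the 9 genes. All 4 signalling chains, LCK, ZAP70 and LAT, with 2 probe sets each for LCK and LAT, were above that level at every time. FYN was above it with 2 of its 3 probe sets, and the third stayed between 2.59 and 2.68. PTPRC was the gene that did not pass: its 3 probe sets lay between 2.24 and 3.18 over all arrays. A value at this level does not show that the transcript or the protein is missing, since a probe set can also fail to read its transcript.

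The rest of the receptor pathway, as far as the array measured it, was expressed in part. TRBC1, the constant part of the receptor beta chain, was read by 3 probe sets between 10.67 and 14.27, although TRBC1 and its near-identical copy TRBC2 may not be told apart by such probes. TRAC had no probe set with its symbol alone. The coreceptors CD4 (2.37 to 3.34) and CD8A (3.12 to 3.63) stayed below the filter, as did the receptors CD2 (3.73 to 4.87) and CD28 (2.45 to 2.79). SYK, the relative of ZAP70 used by B cells and early thymocytes, lay between 2.08 and 3.07. The list of related SRC and SYK family kinases had 6 measured genes, SYK, LYN, FGR, BLK, YES1 and SRC, and 0 of them passed.

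T-lineage markers were present in part. Of 10 measured T cell and thymocyte markers 6 passed the filter, CD1A, CD1B, CD5, DNTT, PTCRA and TRBC1, while CD2, CD4, CD7 and RAG1 did not. Markers of other blood cells stayed below the filter: 0 of 5 measured B cell genes passed, 0 of 4 myeloid, 0 of 6 NK cell and 0 of 1 erythroid, with a highest single value of 4.00. The mean level of the measured T-lineage markers, taken per array, was 6.35 to 6.42 at 0 h, 6.18 to 6.22 at 0.5 h, 6.16 to 6.18 at 1 h, 6.02 to 6.07 at 3 h and 6.07 to 6.09 at 6 h. Pearson's r between the 2 arrays of a time was 0.991 to 0.994. The probe sets for 18S ribosomal RNA moved with time and averaged 9.03 ± 0.88 (SD, n = 2) at 0 h, 10.44 ± 0.34 after 0.5 h, 10.68 ± 0.64 after 1 h, 11.20 ± 0.65 after 3 h and 11.67 ± 0.49 after 6 h. The spike-in control probe sets averaged 10.00 ± 0.29 at 0 h, and over the later times 10.27 ± 0.28 (0.5 h), 10.25 ± 0.19 (1 h), 10.76 ± 0.034 (3 h) and 10.63 ± 0.0318 (6 h). For ACTB, the gap of the 3-prime over the 5-prime signal, which grows as RNA breaks down, was 1.60 to 1.75 over the 5 time means. The part of these shifts in the results below was not tested. In RNA from a whole culture, fewer cells of a kind and less RNA per cell cannot be told apart.

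**Figure D1:**
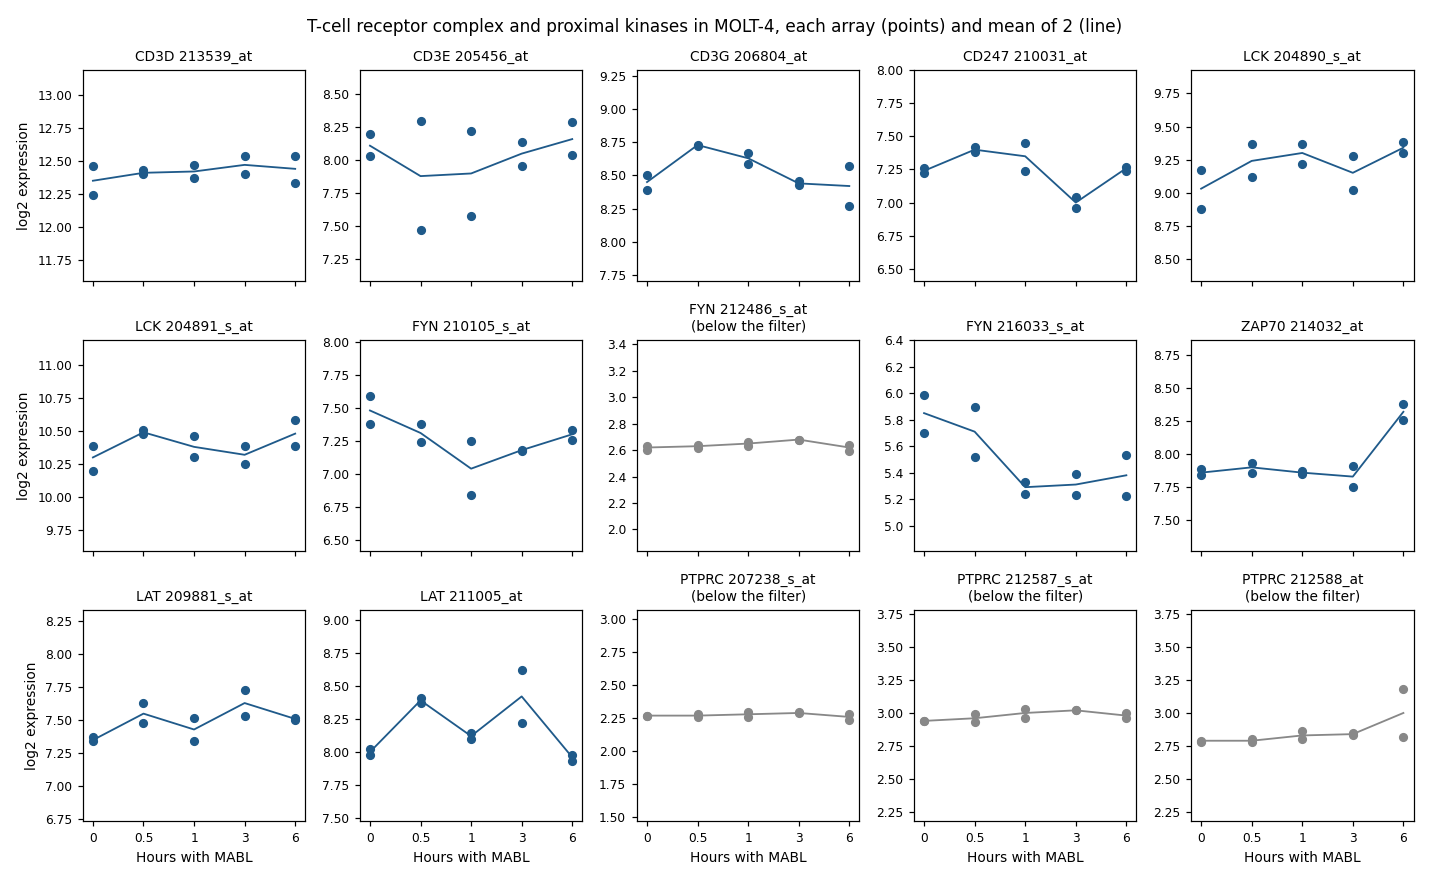
Log2 expression of the 15 member probe sets against hours with MABL, with each array as a point and the mean of 2 arrays as a line; every panel spans 1.6 log2 units and grey marks probe sets below the filter. ZAP70 stands at 8.26 and 8.38 at 6 h, above its other 8 arrays, while CD3D stays between 12.24 and 12.54 throughout.

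As deposited, ZAP70 rose 1.37-fold at 6 h. The test was passed at a single time by 1 probe set each of FYN (lower at 1 h) and LAT (higher at 3 h). The 4 signalling chains and LCK passed it at none in this scaling, though CD3D, CD3G, CD247 and LCK did once array medians were made equal. The test was limma, a linear model fitted over all tested probe sets, with a Benjamini-Hochberg adjusted p under 0.05 as the threshold for a call. Of the 11 member probe sets 0 were called at 0.5 h, where 17.0% of all tested probe sets were called. There 2 of the 11 had an unadjusted p under 0.05, against 29.7% of all. At 1 h 1 was called, lower, against 28.4% of all in either direction and 24.2% lower. The 3 h arrays gave 1 call, higher, against 28.9% in either direction and 2.53% higher. At 6 h there was 1 call, also higher, against 25.7% in either direction and 4.07% higher. The F test over the 5 times called 1 of 11, against 39.6% of all.

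Between successive times, limma called 0 of 11 member probe sets at 1 h against 0.5 h (1 at an unadjusted p under 0.05) and 0 at 3 h against 1 h (2 at an unadjusted p under 0.05). The shares of all probe sets that were called were 0.0468% for the first step and 3.77% for the second. At an unadjusted p under 0.05 the shares of all were 13% and 21.1%. The step of 6 h against 3 h had 1 call among the members, higher, with 7.09% of all called and 5.00% called higher. Counted without a test, both later arrays stood above both 0 h arrays for 5 of 11 member probe sets at 0.5 h (29.1% of all), for 3 at 1 h (29.3%), for 2 at 3 h (20.9%) and for 4 at 6 h (18.9%). Both stood below for 0 at 0.5 h (31.4% of all), for 2 at 1 h (39.0%), for 3 at 3 h (47.6%) and for 2 at 6 h (47.6%).

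No member probe set met the submitters' rule of more than 2 or less than 0.5 times the 0 h level in both replicates. That rule was met by 6.10% of all tested probe sets at 0.5 h, by 11.6% after 1 h, by 6.99% after 3 h and by 5.03% after 6 h. The 95% intervals of all 44 member changes from 0 h lay between -0.96 and 0.73, so each left out a change of 1 log2 unit, or 2-fold, at this reading of the scale. With equal array medians 43 of 44 did so, the exception being LAT at 3 h, whose interval reached 1.02. Over all tested probe sets 73.3% to 80.0% had such an interval as deposited, depending on the time, and 76.7% to 83.8% with equal array medians. The median change of the members was 0.16 at 0.5 h, where that of all tested probe sets was 0.01. It was 0.08 at 1 h (all tested, -0.03), -0.00 at 3 h (all tested, -0.15) and 0.05 at 6 h (all tested, -0.14).

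Among the signalling chains, CD3D read 12.46 and 12.24 at 0 h, 12.40 and 12.43 at 0.5 h, 12.37 and 12.47 at 1 h, 12.54 and 12.40 at 3 h, and 12.54 and 12.33 at 6 h. The arrays of every later time overlapped those of 0 h, and its largest difference, at 3 h, was 0.12 (95% interval -0.16 to 0.40, limma adjusted p = 0.529). CD3D is the delta chain, which pairs with the epsilon chain CD3E. CD3E read 8.03 and 8.20 at 0 h, 8.30 and 7.47 at 0.5 h, 8.22 and 7.58 at 1 h, 8.14 and 7.96 at 3 h, and 8.29 and 8.04 at 6 h. Its replicates at 0.5 h and 1 h lay farther apart than any of its time means, so its intervals were the widest of the 4 chains, reaching from -0.89 to 0.43 at 0.5 h.

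CD3G, the gamma chain, which pairs with another copy of epsilon, read 8.50 and 8.39 at 0 h, 8.73 and 8.72 at 0.5 h, 8.59 and 8.67 at 1 h, 8.43 and 8.46 at 3 h, and 8.27 and 8.57 at 6 h. Both arrays of 0.5 h and of 1 h were above both of 0 h, yet the differences of 0.28 (SE 0.118, limma adjusted p = 0.157) and 0.18 (adjusted p = 0.305) were not called. CD247 carries the longest signalling tail of the complex and read 7.26 and 7.22 at 0 h, 7.38 and 7.42 at 0.5 h, 7.45 and 7.24 at 1 h, 7.04 and 6.96 at 3 h, and 7.27 and 7.24 at 6 h. Both of its 3 h arrays were the lowest of the 10. The difference was -0.24 from 0 h (SE 0.103, limma adjusted p = 0.121) and -0.35 from 1 h (adjusted p = 0.0989), and neither was called. With equal array medians the difference from 0 h was 0.07. CD3E, CD3D and CD3G follow each other on chromosome 11 with no other protein-coding gene between them in RefSeq, and their time means had 3 different orders.

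LCK, the kinase that starts the signal, had 2 probe sets. The first (204891_s_at) read 10.39 and 10.20 at 0 h, 10.48 and 10.51 at 0.5 h, 10.46 and 10.30 at 1 h, 10.39 and 10.25 at 3 h, and 10.58 and 10.39 at 6 h. The second (204890_s_at) read 8.88 and 9.17 at 0 h, 9.37 and 9.12 at 0.5 h, 9.22 and 9.37 at 1 h, 9.28 and 9.02 at 3 h, and 9.38 and 9.30 at 6 h. All 8 later time means of the pair of probe sets were above those of 0 h, by 0.03 to 0.31, and none was called. The largest, 0.31 at 6 h for the second probe set, had a 95% interval of -0.03 to 0.66 (limma adjusted p = 0.161).

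ZAP70, the kinase that docks on the phosphorylated chains, rose at 6 h. It read 7.84 and 7.89 at 0 h, 7.86 and 7.93 at 0.5 h, 7.85 and 7.87 at 1 h, 7.91 and 7.75 at 3 h, and 8.26 and 8.38 at 6 h. The first 4 times overlapped, with means between 7.83 and 7.90, and both 6 h arrays stood above all other arrays. The mean was 8.32 ± 0.0851 at 6 h and 7.86 ± 0.034 at 0 h (SD, n = 2 each), a rise of 0.46 (SE 0.101, 95% interval 0.22 to 0.69, limma adjusted p = 0.014) or 1.37-fold. Against 3 h, with a mean of 7.83, the rise was 0.49 (SE 0.101, limma adjusted p = 0.028), a call lost without 3 h replicate 2 (0.137) and when either 6 h array was left out (0.0539 without replicate 1 and 0.129 without replicate 2). The call at 6 h against 0 h was lost without 0 h replicate 1 (limma adjusted p = 0.0801) and without 6 h replicate 2 (0.0618). ZAP70 was the 1 member called in the F test (limma adjusted p = 0.0209), a call lost without 0 h replicate 1 or either 6 h array.

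Among 2818 other genes, those whose changes at the 4 later times lay closest to those of ZAP70 were TPI1, NARF and LONP1, each with a root mean square difference of 0.06. TPI1 is a glycolytic enzyme and LONP1 a protease of the mitochondrial matrix. At 6 h TPI1 differed from 0 h by 0.41, NARF by 0.51 and LONP1 by 0.55, and at the earlier times the 3 genes lay between -0.03 and 0.13.

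FYN fell at 1 h by 1 of its 2 tested probe sets. That probe set (216033_s_at) read 5.99 and 5.70 at 0 h, 5.90 and 5.52 at 0.5 h, 5.33 and 5.24 at 1 h, 5.39 and 5.23 at 3 h, and 5.22 and 5.53 at 6 h. All arrays of 1 h, 3 h and 6 h were below those of 0 h. Its changes were -0.56 at 1 h (SE 0.173, limma adjusted p = 0.0434), -0.53 at 3 h (adjusted p = 0.0505) and -0.47 at 6 h (adjusted p = 0.0809), of which that at 1 h was called. The other tested FYN probe set (210105_s_at) had the same order of time means, lowest at 1 h and highest at 0 h. It read 7.25 and 6.84 at 1 h against 7.59 and 7.38 at 0 h, a difference of -0.44 (SE 0.147, limma adjusted p = 0.0579). This FYN call at 1 h did not hold once array medians were made equal (-0.27, limma adjusted p = 0.129), after a second quantile normalization (0.123), when no filter was set (0.196), on untransformed scores (0.0525) and without 0 h replicate 1 (0.245), 1 h replicate 1 (0.11), 1 h replicate 2 (0.169) or either 3 h array (0.0543).

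LAT, the adaptor below ZAP70, was called higher at 3 h by 1 of its 2 probe sets. That probe set (211005_at) read 8.02 and 7.98 at 0 h, 8.41 and 8.37 at 0.5 h, 8.14 and 8.10 at 1 h, 8.62 and 8.22 at 3 h, and 7.93 and 7.98 at 6 h. Every array of 0.5 h, 1 h and 3 h was above those of 0 h, while those of 6 h overlapped them. The changes were 0.39 at 0.5 h (SE 0.133, limma adjusted p = 0.0852) and 0.43 at 3 h (SE 0.133, adjusted p = 0.0446), and the step between 3 h and 6 h, -0.47, was not called (adjusted p = 0.0753), although it was with equal array medians (-0.53, adjusted p = 0.0172) and with the median change set to 0 (-0.48, adjusted p = 0.0278). The other LAT probe set (209881_s_at) was also highest at 3 h, with 7.73 and 7.53 at 3 h against 7.37 and 7.34 at 0 h, a difference of 0.28 (SE 0.115, limma adjusted p = 0.11). The call at 3 h rested on few data: it was kept in 1 of 10 fits that each left out 1 array, with adjusted p between 0.0613 and 0.187 in the others, and the change was 0.23 without 3 h replicate 1. It was also lost with no filter (0.135) and on log2 of the scores (0.0575).

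**Figure D2:**
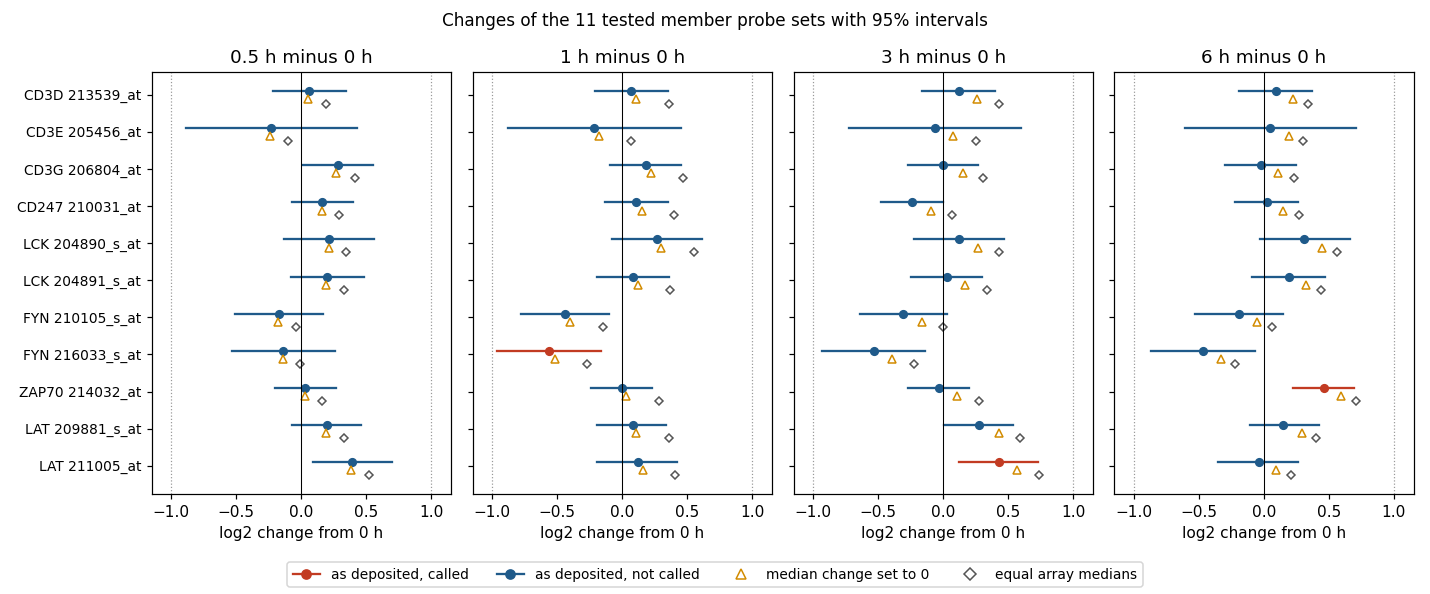
Log2 change from 0 h of the 11 tested member probe sets at each later time, with 95% intervals as lines, calls in red and dotted lines at a 2-fold change. The 3 calls are FYN at 1 h (-0.56), LAT at 3 h (0.43) and ZAP70 at 6 h (0.46), and open symbols show that setting the median change to 0 or making array medians equal moves the members up at 1 h, 3 h and 6 h.

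The direction of the smaller changes depended on how the arrays were scaled. Relative to 0 h, the median level over the tested probe sets, a different quantity from the median of their changes, moved by -0.13 at 0.5 h and by -0.29 at 1 h. At 3 h it moved by -0.31, and by -0.25 at 6 h. With equal array medians 1 member probe set was called higher at 0.5 h (6.90% of all) and 6 after 1 h (32.5%). There were 4 after 3 h (23.1%) and 4 after 6 h (14.3%). Called lower were 0 at each time, against 15.3%, 19.5%, 17.8% and 14.1% of all in the same order. The 6 at 1 h were those of CD3G (0.47, limma adjusted p = 0.0172), CD247 (0.40, adjusted p = 0.0244), both of LCK (0.55 and 0.37) and both of LAT (0.36 and 0.41). Those at 3 h were CD3D (0.43), LCK (0.43) and both of LAT, and those at 6 h were ZAP70 (0.71), both of LCK (0.56 and 0.44) and LAT (0.40). That scaling raised the median change of all tested probe sets to 0.26 at 1 h and placed 66.7% of them above 0 there, with 61.2% at 3 h and 58.6% at 6 h.

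When instead the median change itself was set to 0, a scaling chosen after the data were seen, 1 member was called at 0.5 h (21.0% of all), with 1 after 1 h (31.7%), 2 after 3 h (29.5%) and 1 after 6 h (26.0%). The calls were LAT (211005_at) at 0.5 h (0.38, limma adjusted p = 0.0401), FYN (216033_s_at) at 1 h (-0.52, adjusted p = 0.0342), both LAT probe sets at 3 h (0.57 and 0.43, adjusted p = 0.00665 and 0.0167) and ZAP70 at 6 h (0.59, adjusted p = 0.00435). ZAP70 at 6 h was higher and called under these 3 scalings and after renewed quantile normalization (0.71, limma adjusted p = 0.00277). LCK at 6 h was called neither as deposited nor with the median change set to 0 (204890_s_at 0.45, limma adjusted p = 0.0513). Both LCK probe sets were called higher at 6 h with equal array medians. They were also called after renewed quantile normalization (0.56 and 0.39, limma adjusted p = 0.0278 for each).

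To place the promoters beside these values, 250 bases before the start site were taken from RefSeq. They were taken for the first of 3 start sites of ZAP70, the member that rose, for CD3D and for LCK. CD3D was called at no time as deposited, but at 3 h with equal array medians (0.43, limma adjusted p = 0.0392). LCK has a pair of start sites in RefSeq. RefSeq start sites were matched for 7 of the 9 members. Capitals mark GGAAG or its complement CTTCC, a longer string that holds the ETS factor core GGAA. GGAA followed by any other base was not marked or counted. All sequences run 5′ to 3′ on the strand of the gene in GRCh38.p14.
ZAP70 first start, chr2:97713326-97713575, plus strand: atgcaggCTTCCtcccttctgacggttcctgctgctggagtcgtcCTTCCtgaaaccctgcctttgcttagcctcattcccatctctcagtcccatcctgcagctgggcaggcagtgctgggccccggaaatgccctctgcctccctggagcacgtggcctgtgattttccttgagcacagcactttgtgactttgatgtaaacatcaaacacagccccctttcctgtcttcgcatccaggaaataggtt
CD3D, chr11:118342706-118342955, minus strand: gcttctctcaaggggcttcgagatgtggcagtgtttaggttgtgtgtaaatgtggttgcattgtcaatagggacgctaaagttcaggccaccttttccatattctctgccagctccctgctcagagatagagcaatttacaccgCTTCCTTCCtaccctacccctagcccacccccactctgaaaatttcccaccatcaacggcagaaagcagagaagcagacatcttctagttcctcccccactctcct
LCK upstream start, chr1:32251015-32251264, plus strand: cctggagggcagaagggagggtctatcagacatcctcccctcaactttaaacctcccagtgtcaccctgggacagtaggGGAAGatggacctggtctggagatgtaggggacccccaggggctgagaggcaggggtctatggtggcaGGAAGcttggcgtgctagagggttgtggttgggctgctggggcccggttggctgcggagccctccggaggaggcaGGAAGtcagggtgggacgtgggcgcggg
LCK downstream start, chr1:32273871-32274120, plus strand: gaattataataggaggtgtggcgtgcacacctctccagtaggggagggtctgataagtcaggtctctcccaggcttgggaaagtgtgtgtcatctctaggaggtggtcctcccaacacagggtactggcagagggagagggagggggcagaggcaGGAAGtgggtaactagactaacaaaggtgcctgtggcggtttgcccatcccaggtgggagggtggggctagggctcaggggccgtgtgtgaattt
The GGAAG string, searched on both strands, stands before 10 of 14 member start sites (71.4%). It stands before 65.1% of all 35116 start sites searched, so it is common among all of them. The E box CANNTG stands before 7 of the 14 (50.0%) and before 61.8% of all, the GC box GGGCGG before 28.6% and 42.6%, the RUNX site TGTGGT before 14.3% and 11%, and the TATA box TATAAA before 0 of 14 and 10.7%. In the sequences shown the GGAAG string begins 243 and 205 bases before the ZAP70 start and 106 and 102 bases before that of CD3D. The other 2 start sites of ZAP70 have 0 such strings in their 250 bases. A match is a description of letters and not a binding site.

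Beside the members, 95 other genes of the pathway were listed by role, of which 74 had a probe set and 15 passed the filter. The lists of these genes were drawn up with earlier results of the same arrays known. Counted by the brightest probe set of each, limma called 0 of these 15 at 0.5 h, against 17.0% of all tested probe sets. This share and those that follow are over single probe sets, with no choice of the brightest per gene. Among all 21 tested probe sets of the listed genes, 0 were called higher and 2 lower at 0.5 h. At an unadjusted p under 0.05 there were 2 of the 15, against 29.7% of all. At 1 h 1 rose and 0 fell, with 28.4% of all called. At 3 h 1 rose and 1 fell (28.9% of all), and at 6 h 2 rose and 1 fell (25.7% of all). The riser at 1 h and at 3 h, and 1 of the 2 at 6 h, was SIT1, which met the filter only through its 6 h arrays. Among the other 14 genes 0 rose and 0 fell at 1 h, 0 rose and 1 fell at 3 h, and 1 rose and 1 fell at 6 h. These counts leave out the dimmer probe sets. That of SLA was called lower at 0.5 h, 1 h, 3 h and 6 h, and that of SH2D1A at 0.5 h, 1 h and 3 h. The median change of the 15 was 0.07 at 0.5 h (all tested, 0.01), 0.07 at 1 h (all tested, -0.03), 0.02 at 3 h (all tested, -0.15) and 0.13 at 6 h (all tested, -0.14). With equal array medians 1 rose at 0.5 h (6.90% of all called higher) and 4 rose at 1 h (32.5%). At 3 h 4 rose (23.1%), and at 6 h 4 rose (14.3%). SIT1 was 1 of the 4 that rose at each of the 3 later times. In this scaling 0 fell at 0.5 h (15.3% of all called lower) and at 1 h (19.5%), and 1 fell at 3 h (17.8%) and at 6 h (14.1%).

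Of the adaptors, 4 of 11 measured genes passed. SIT1, a membrane adaptor that binds tyrosine phosphatases and dampens receptor signals, rose to 5.29 and 5.28 at 6 h, against 3.96 and 4.02 at 0 h. The change was 1.30 (SE 0.116, limma adjusted p = 0.000649), and 0.29 (adjusted p = 0.0212) when values below log2 5 were set to 5. SIT1 lay between 3.96 and 4.37 on the other 8 arrays, so it was tested only because of the time at which it was high, and its call there is no independent support for a rise. Its changes of 0.38 at 1 h and 0.36 at 3 h (limma adjusted p = 0.0416 and 0.0481) lay wholly below that level and were 0.00 after the same flooring. LCP2, the adaptor SLP-76 that ZAP70 phosphorylates beside LAT, fell to 5.07 and 5.13 at 3 h, against 6.10 and 5.83 at 0 h. This was a change of -0.87 (SE 0.18, limma adjusted p = 0.00968), and at 6 h it was -0.95 (adjusted p = 0.00776), or -0.82 after the same flooring. Both calls of LCP2 were lost without 0 h replicate 1 (limma adjusted p = 0.0776 at 3 h and 0.0624 at 6 h) and with no filter (0.0669 and 0.0533), and its other probe set differed by -0.15 at 3 h and -0.16 at 6 h.

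Of the coreceptors and costimulatory receptors 2 of 9 measured genes passed. CD6, a scavenger receptor family protein of T cells, rose to 6.32 and 6.02 at 6 h, against 5.67 and 5.71 at 0 h. The change was 0.48 (SE 0.142, limma adjusted p = 0.0394), and it was kept in 9 of 18 alternative settings, with adjusted p between 0.0506 and 0.206 in the others. With equal array medians CD6 was called higher at 1 h (0.59, limma adjusted p = 0.0183), 3 h (0.60, adjusted p = 0.0219) and 6 h (0.73, adjusted p = 0.0108). Among receptor chains 2 of 3 measured genes passed and 0 were called as deposited, with TRBC1 at 13.95 at 6 h against 14.11 at 0 h.

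Of the regulators of LCK, FYN and ZAP70, 3 of 11 passed, CSK, PTPN6 and SLA, and as deposited 0 were called by their brightest probe sets. PTPN6, the phosphatase SHP-1, differed by -0.31 at 1 h (limma adjusted p = 0.281). Among all 21 tested probe sets of the list, SLA and SH2D1A were picked out after their values were seen, because their probe sets disagreed. SLA is an adaptor that lowers receptor levels. Its brighter probe set differed by 0.57 at 6 h (limma adjusted p = 0.0868) and its other one by -0.78 (adjusted p = 0.00818), with 5.02 and 4.80 at 6 h against 5.86 and 5.52 at 0 h. With values below log2 5 set to 5, the change of the other probe set at 6 h was -0.68. That probe set was also called lower at 0.5 h (-0.62, limma adjusted p = 0.0264), 1 h (-0.92, adjusted p = 0.00293) and 3 h (-0.79, adjusted p = 0.00736). With equal array medians it was still called at 1 h, 3 h and 6 h. In that scaling the brighter probe set was called higher at 3 h (0.54, limma adjusted p = 0.0415) and 6 h (0.82, adjusted p = 0.00902). SH2D1A, the adaptor SAP, which recruits FYN, differed by -0.08 at 1 h on its brighter probe set and by -1.25 on the other (limma adjusted p = 0.00547). The other probe set read 4.66 and 4.69 at 1 h, below log2 5, and its change there was -0.92 after the same flooring. It was also called lower at 0.5 h (-1.03, limma adjusted p = 0.0214) and 3 h (-0.94, adjusted p = 0.0205). Floored, these changes were -0.92 and -0.74. At 6 h it differed by -0.46 and was not called (limma adjusted p = 0.187).

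Of the enzymes below LAT 2 of 12 passed, PLCG1 and VAV1, and 0 were called as deposited. PLCG1, which makes the calcium-releasing messenger, differed by 0.28 at 1 h (limma adjusted p = 0.106). With equal array medians PLCG1 was called higher at 1 h (0.56, limma adjusted p = 0.0102). Of the calcium and NFAT genes 0 of 9 passed, among them ITPR1, STIM1, PPP3CA and NFATC1. Of the genes that receptor signals switch on in T cells 2 of 13 measured activation targets passed, SPRY1 and NFKBIA, where 23.6% of all genes passed. As deposited, 0 of the 2 were called against 0 h. SPRY1, an inhibitor of RAS signalling that was picked out after its values were seen, differed by 0.65 at 0.5 h (limma adjusted p = 0.103). That change was 0.44 when values below log2 5 were set to 5. With equal array medians SPRY1 was called higher at 0.5 h (0.78, limma adjusted p = 0.019), 3 h (0.73) and 6 h (0.64). CD69 lay between 3.07 and 5.29 over the arrays, with 1 array at log2 5 or higher, EGR1 between 2.02 and 4.35, and IL2RA between 1.94 and 3.31. NFKBIA, the inhibitor of NF-kappaB, differed by 0.20 at 1 h and by -0.35 at 6 h (limma adjusted p = 0.286 and 0.0728), and passed the F test over the 5 times (adjusted p = 0.0492). With equal array medians NFKBIA was called higher at 1 h (0.49, limma adjusted p = 0.0108).

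**Figure D3:**
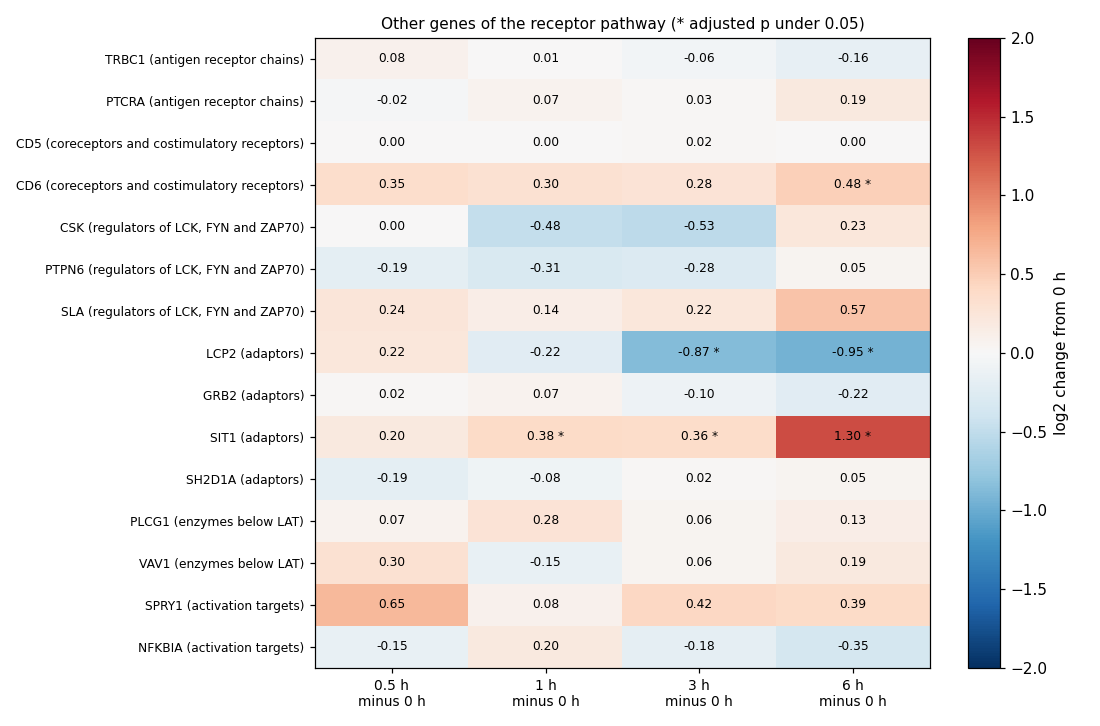
Log2 change from 0 h at the 4 later times for the 15 other genes of the pathway that passed the filter, by the brightest probe set of each, with asterisks for calls. SIT1 at 6 h (1.30) and LCP2 at 3 h and 6 h (-0.87 and -0.95) carry the deepest colours, and SIT1 passed the filter only through its 6 h arrays.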

How the data were processed

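Each probe set has a deposited score which, per the submitters' processing notes, came from GCRMA (version not given in the sources used here). The authors' scale is not stated; the square root of the score, which reaches 15.43, was read as log2. Of 22283 probe sets, 68 controls were left out, and 4276 (19.2%) with at least 2 of 10 arrays at log2 5 (a score of 25) were tested. Of all probe sets 19071 had 1 gene symbol, 1043 several and 2169 none; genes were named only from 1 symbol. No read depth exists for arrays, and 2 arrays per time limit the precision.

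limma 3.58.1 in R 4.3.3 was fitted on all 10 arrays, which share 1 estimate of the spread, with Benjamini-Hochberg adjustment within each comparison over all tested probe sets; Python 3.11.15 and pandas 2.3.3 made the summaries. The fit was tested on simulated data. Named were all 9 members with every probe set, 10 pathway genes whatever their values, pathway genes called by their brightest probe set or brightest in a role with no call, and the 3 genes closest to a member called in the F test. Members and lists were chosen with earlier results of these data known. Same-numbered arrays of different times did not deviate together (r -0.23 to 0.15 over 10 pairs of times, 2 over 0.1), so replicate numbers were not taken to pair samples. Alternatives were 2 other scalings, untransformed and log2 scores, 2 other filters, a floor, the replicate block and leaving out each array; setting the median change to 0 was added after seeing the data.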

Additional observations from a re-analysis of the deposited data

How the results depend on the processing

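Of 1456 recomputed limma changes of member probe sets 1396 kept their side of the threshold, 25 lost it, 35 gained it, and 0 called values reversed; 89 changed sign while called under neither setting. With equal array medians 1 member probe set was called at 0.5 h (22.2% of all) and 6 after 1 h (52.0%). There were 4 after 3 h (40.9%), 4 after 6 h (28.4%) and 4 in the F test (52.2%). The 2 between successive times were at 6 h against 3 h (12.3%). Setting the median change to 0 gave 1 at 0.5 h (21.0% of all), 2 at 3 h (29.5%) and 2 in the F test (40.9%). Between successive times it gave 2, both at 6 h against 3 h. Of these, 1 was higher (7.39% of all called higher) and 1 lower (3.60% called lower). Renewed quantile normalization gave 1 at 0.5 h, 4 after 1 h, 2 after 3 h, 4 after 6 h, 3 in the F test and 2 between successive times. Untransformed scores gave 0 at 1 h and 2 in the F test, and log2 scores 0 at 3 h. With no filter there were 0 at 1 h and 0 at 3 h. The F test called 2 when the filter stood at log2 7, and likewise 2 when values were floored at log2 5. For untransformed and log2 scores, these filters, the floor and the replicate block below, shares of all tested probe sets are not given. Their member and pathway counts therefore cannot be set against the share called over all.

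With the replicate block, 2 member probe sets were called at 1 h, both of FYN and both lower, against 1 without it; the numbers are not known to pair samples. Among the 21 pathway probe sets, calls numbered 2 at 0.5 h (17.0% of all tested probe sets), 3 after 1 h (28.4%), 4 after 3 h (28.9%) and 4 after 6 h (25.7%). Of these, 2, 2, 3 and 2 were lower in the same order, against 15.1%, 24.2%, 26.4% and 21.6% of all called lower. Equal array medians gave 7 at 1 h (52.0% of all) and 9 at 3 h (40.9%), and renewed quantile normalization 7 at 1 h (43.6%). No filter gave 0 at 0.5 h and 1 at 1 h, and the filter at log2 7, which tests fewer genes, gave 0 at each time.

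Leaving out 1 array at a time gave 0 to 1 member calls at each of the 4 times and between successive times, and 0 to 2 in the F test. The call was not always the same one: without either 0.5 h array the 1 call at 3 h was FYN, lower (-0.53, limma adjusted p = 0.0433), in place of LAT, higher, and without 3 h replicate 2 the 1 call between successive times was LAT, lower at 6 h than at 3 h (-0.67, adjusted p = 0.0307), in place of ZAP70. Without 1 h replicate 1 the call at 1 h was the other FYN probe set (-0.64, adjusted p = 0.0189), and without either 3 h array the call at 0.5 h was LAT, higher (0.39, adjusted p = 0.0264). For the pathway it gave 0 to 2 at 0.5 h, 2 to 3 at 1 h, 0 to 4 at 3 h and 1 to 4 at 6 h. The cause of these shifts was not tested. Shares of all tested probe sets are not given for the fits that left out 1 array. Their counts therefore cannot be set against the share called over all. PTPRC and the other genes below log2 5 cannot be followed at this signal.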
